A study of Mus musculus with 8 samples.

Results

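The 5 genes described here encode the BAF subunits whose bromodomains are the targets of PFI-3 and BI-9564: Smarca4, Smarca2 and Pbrm1 for PFI-3, and Brd7 and Brd9 for BI-9564. They were taken by name, with no measured value in the rule, though earlier results of these data were known. Each was found as 1 of the 50600 gene rows of the expression table. Only their mRNA was measured. Binding of the compounds to the proteins, protein amount and complex assembly were not.

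BAF (SWI/SNF) complexes slide and evict nucleosomes with the energy of ATP, and each complex holds either SMARCA4 (BRG1) or its paralog SMARCA2 (BRM) as the ATPase. PBRM1 and BRD7 define the PBAF form, BRD9 defines the non-canonical form (ncBAF), and the canonical form (cBAF) carries ARID1 and DPF proteins instead. A bromodomain is a small fold that reads acetylated lysine on histone tails. Mouse embryonic stem cells are known to rely on a complex built around SMARCA4.

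RNA-seq was made from 8 libraries in 4 treatments of 2 replicates each: DMSO (the vehicle), PFI-3, BI-9564 and both compounds together (P + B). PFI-3 is a ligand for the bromodomains of SMARCA2 and SMARCA4 and for the fifth bromodomain of PBRM1, and BI-9564 is an inhibitor of the BRD9 and BRD7 bromodomains. All 8 libraries, DMSO included, came from c-Jun_TetOn mouse ESCs at passage 12, a line of OG2 origin on a mixed 129SVJ/C57B6/CBA background, grown in 2i/LIF without feeders. All had received 2 µg/ml doxycycline to switch on JUN and were exposed to compound or vehicle for 6 h, so no library shows cells without JUN induction. How much of each compound P + B contained is not settled by the sources used here. Nothing says that replicates were separate cultures, and p-values then measure only the spread between these samples, which may be technical.

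Values were length-scaled transcript abundances (TPM) given as whole numbers, so that levels can be compared between genes. Libraries summed to 991574 to 991897, which follows from the unit and does not show sequencing depth. Depth is therefore unknown, and 1 unit is the finest step that can be read. The embryonic stem cell label held: Pou5f1 (Oct4) lay between 1104 and 1333 in all libraries. Sox2 lay between 66 and 111 and Nanog between 29 and 106. Of the fibroblast markers looked up, Col1a2, Dcn, Lum, Postn and Pdgfra were listed at 0 in every library. Thy1 lay between 0 and 4, and Col1a1 and Col3a1 between 0 and 1. The induced driver Jun measured 1970 and 2877 in the DMSO libraries, 1570 and 2227 under PFI-3, 2071 and 3011 under BI-9564 and 1569 and 2159 under P + B.

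The ATPase genes are shown first because the largest difference within this set lay between them. Smarca4 lies at chr9:21616169-21704230 on the plus strand, with 4 annotated transcripts, and Smarca2 at chr19:26605050-26778322 on the plus strand, with 46 (GENCODE on GRCm38). The stretches before both gene starts are printed 5′ to 3′ from RefSeq (GRCm38.p6), with each CpG in capitals, so that the density of CpG in the 2 promoters can be seen. They span chr9:21615919-21616168 and chr19:26604910-26605049, on the plus strand. The second is shorter because the window before the RefSeq start of Smarca2 runs into its first annotated exon and was ended there.
Smarca4: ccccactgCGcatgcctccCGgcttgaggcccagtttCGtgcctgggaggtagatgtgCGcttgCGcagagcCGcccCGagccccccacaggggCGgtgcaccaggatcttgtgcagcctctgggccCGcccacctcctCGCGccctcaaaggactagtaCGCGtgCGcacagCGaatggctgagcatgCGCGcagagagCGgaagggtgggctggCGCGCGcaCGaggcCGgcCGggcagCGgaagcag
Smarca2: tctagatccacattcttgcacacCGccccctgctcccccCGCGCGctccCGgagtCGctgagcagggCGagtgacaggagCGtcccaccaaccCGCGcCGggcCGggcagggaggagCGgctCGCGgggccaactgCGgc
The Smarca4 stretch held 25 CpG in 250 bases and the Smarca2 stretch held 16 in 140 bases. In the full window of 250 bases before the RefSeq start, Smarca2 held 28, Brd7 22, Pbrm1 31 and Brd9 33, against a median of 6 over 32851 promoters of that length. The promoters of both ATPases were thus CpG-rich although their mRNA levels were far apart. Searched on both strands, none of the 5 windows held the AP-1 motif TGANTCA, which is in 6.749% of all promoters, or the CRE motif TGACGTCA, which is in 1.546%. The absence says only that these letters are not in these windows.

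Smarca4 was the most abundant of the 5 mRNAs. It measured 123 and 136 TPM under DMSO and 119 and 132 under PFI-3, then 137 and 147 under BI-9564 and 136 and 147 under P + B. Its mean over all libraries was 134.6 ± 10.01 TPM (SD, n = 8), rank 1135 of the 50600 rows. Both BI-9564 libraries were above both DMSO libraries, and those of P + B met the DMSO range at 136.

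Smarca2 stood at a few units throughout, with 4 and 5 TPM in DMSO, 2 and 3 in PFI-3, 5 and 4 in BI-9564, and 5 and 5 in P + B. Its mean was 4.125 ± 1.13 TPM (SD, n = 8). The PFI-3 libraries were the lowest pair and did not overlap any other treatment, but each step of 1 unit is 20% to 50% of the value itself. Smarca4 exceeded Smarca2 by 32.6-fold as a ratio of means, and by 27.2-fold to 59.5-fold within single libraries.

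Pbrm1, which encodes the polybromo subunit of PBAF, lies at chr14:31019138-31121592 on the plus strand with 17 transcripts. It measured 40 and 47 TPM in the DMSO libraries, 40 and 44 under PFI-3, 46 and 47 under BI-9564 and 45 and 46 under P + B, a mean of 44.4 ± 2.88 (SD, n = 8). Its range of 40 to 47 was the narrowest of the 5 genes in relative terms, its highest library standing 1.18-fold above its lowest. Gnl3 and Smim4 overlap Pbrm1 on the opposite strand, and whether counting used strand is not given in the sources used here, so reads of these genes and of Pbrm1 may not be fully told apart. Antisense genes likewise overlap Smarca2 (2 genes) and Brd9 (1 gene). In Smarca4 the overlapping gene is Gm27373, annotated as misc_RNA on the same strand, which strand cannot separate, and it holds 53 of the 6562 windows of 50 bases in the Smarca4 transcripts.

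Brd7, the other PBAF reader, lies at chr8:88331039-88362194 on the minus strand with no overlapping gene. It measured 90 and 66 TPM in DMSO, 75 and 67 in PFI-3, 68 and 90 in BI-9564, and 74 and 70 in P + B, a mean of 75.0 ± 9.78 (SD, n = 8). Replicates of the same treatment differed by up to 24 TPM, and this within-treatment spread covered the range of all treatments.

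Brd9, the reader that defines ncBAF, lies at chr13:73937811-73960895 on the plus strand. Its libraries held 25 and 25 TPM under DMSO and 24 and 21 under PFI-3, then 27 and 21 under BI-9564 and 23 and 23 under P + B, with a mean of 23.6 ± 2.07 (SD, n = 8). The PFI-3 and the P + B pairs were both below the DMSO pair, by 1 to 4 units. The 5 genes share no window of 50 bases of transcript with each other, so reads of that length from one paralog match no annotated transcript of another exactly.

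The order Smarca4, Brd7, Pbrm1, Brd9, Smarca2 was the same in 8 of 8 libraries for every pair of genes, so no neighbours in it exchanged places under any treatment. Between neighbours, the ratio within a library was 1.37 to 2.10 for Smarca4 over Brd7, 1.40 to 2.25 for Brd7 over Pbrm1, 1.6 to 2.24 for Pbrm1 over Brd9 and 4.6 to 12 for Brd9 over Smarca2. Smarca4 over Pbrm1 spanned only 2.89 to 3.20, and both genes read higher in replicate 2 than in replicate 1 under all 4 treatments. The share of all genes that did so is not given here.

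**Figure D1:**
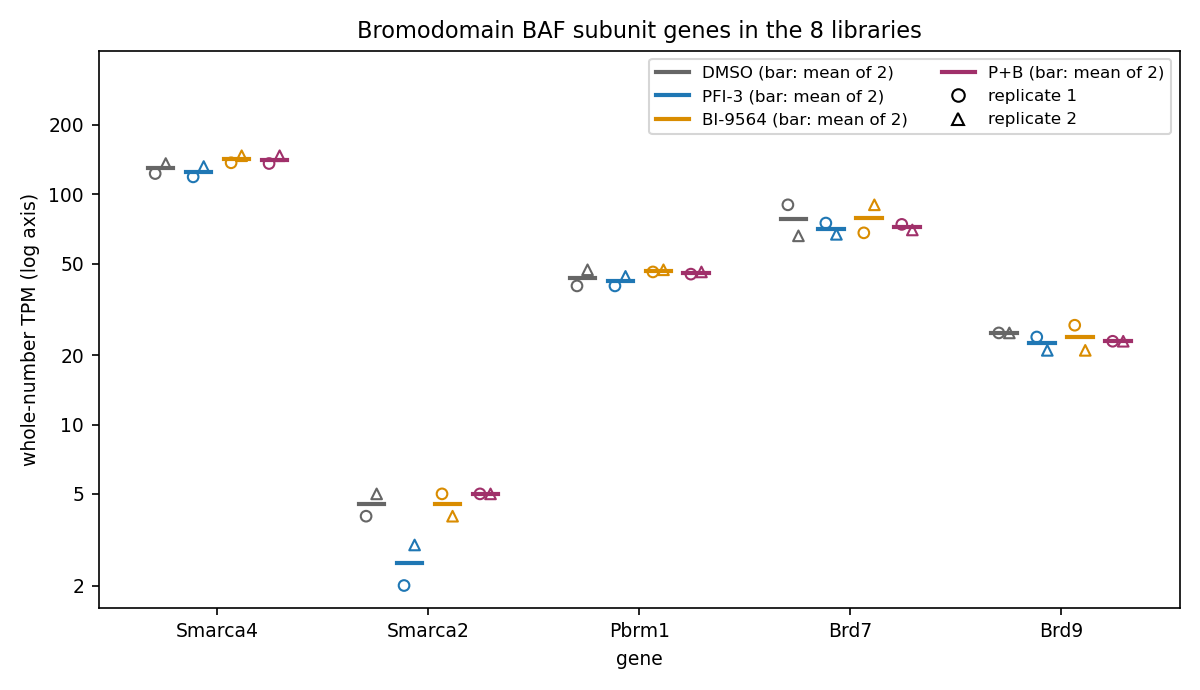
Whole-number TPM (log axis) of the 5 bromodomain BAF subunit genes in the 8 libraries, coloured by treatment; circles are replicate 1, triangles replicate 2 and bars the mean of 2. The 5 genes occupy separate levels, from 119 to 147 for Smarca4 down to 2 to 5 for Smarca2, and within each gene the treatments lie close together apart from the low PFI-3 pair of Smarca2.

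The first question was whether 6 h of compound changed the mRNA of the targeted subunits. None of the 4 members tested passed the thresholds (limma, Benjamini-Hochberg adjusted p below 0.05 and a change of at least 1.5-fold) with P + B, where 4% of the 10222 genes tested passed, with BI-9564, where 0.108% passed, or with PFI-3, where 0% passed. At an unadjusted p below 0.05 the count was also 0 of 4 in each, beside 22.6% of all genes with P + B, 14.9% with BI-9564 and 6.79% with PFI-3. Smarca2 was under the abundance filter (a mean of 5) and was tested among the 13101 genes whose mean reached 1, of which 2.59% passed with P + B and 0% with either compound alone. It did not pass in any of the 3 comparisons. In bulk RNA, fewer cells expressing a gene and less of its mRNA per cell cannot be told apart. The 3 comparisons share the DMSO libraries and are not independent.

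With P + B, Smarca4 was 0.13 higher on the log2(value + 1) scale (SE 0.10, 95% interval −0.10 to 0.36, limma adjusted p = 0.496). Pbrm1 stood at 0.07 (−0.22 to 0.35), Brd7 at −0.10 (−0.51 to 0.31) and Brd9 at −0.12 (−0.49 to 0.25). All 4 intervals included 0, and centring the libraries on their medians moved Pbrm1 to −0.0253.

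With PFI-3 alone, its targets Smarca4 and Pbrm1 both stood at −0.05, with intervals of −0.28 to 0.19 and −0.33 to 0.24. Brd7 stood at −0.12 and Brd9 at −0.15. With BI-9564 alone, its targets Brd7 and Brd9 stood at 0.02 (−0.39 to 0.43) and −0.07 (−0.44 to 0.30), while Smarca4 stood at 0.13 and Pbrm1 at 0.10. Over these 12 estimates of 4 genes in 3 comparisons, adjusted p ran from 0.496 to 0.982 (limma) and the 95% intervals together spanned 0.694-fold to 1.35-fold. A change of 1.5-fold or more in either direction lay outside every interval, which are per gene and not widened for the number of genes. When 1 library at a time was left out, 12 of 25 member estimates (5 genes, these 3 comparisons and the 2 averages given next) changed sign. Leaving out 1 library also breaks a pair of replicate numbers. Within the 2 replicate numbers, Smarca4 differed from DMSO by −4 and −4 TPM with PFI-3, by 14 and 11 with BI-9564 and by 13 and 11 with P + B. Both differences had the same sign in 3 of 5 members with PFI-3 (Smarca2, Smarca4 and Brd9), where 49.7% of tested genes did so, in 1 of 5 with BI-9564 (Smarca4), against 59.6%, and in 2 of 5 with P + B (Smarca4 and Brd9), against 63.3%.

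Smarca2 showed the largest difference and the widest intervals. PFI-3 alone differed from DMSO by −0.66 (SE 0.291, −1.34 to 0.02, limma unadjusted p = 0.0561, adjusted p = 0.785), and P + B differed from DMSO by 0.13 (−0.55 to 0.81). P + B exceeded PFI-3 alone by 0.79 (SE 0.291, 0.11 to 1.48), with an unadjusted p of 0.0287 in limma and an adjusted p of 0.272. In that comparison 15.3% of all genes tested had an unadjusted p below 0.05 and 0.588% passed both thresholds. Against DMSO its intervals ran from 0.394-fold to 1.02-fold with PFI-3, which leaves a fall of 1.5-fold open, from 0.682-fold to 1.76-fold with P + B, which leaves a rise of 1.5-fold open, and from 0.623-fold to 1.61-fold with BI-9564, which leaves both open.

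**Figure D2:**
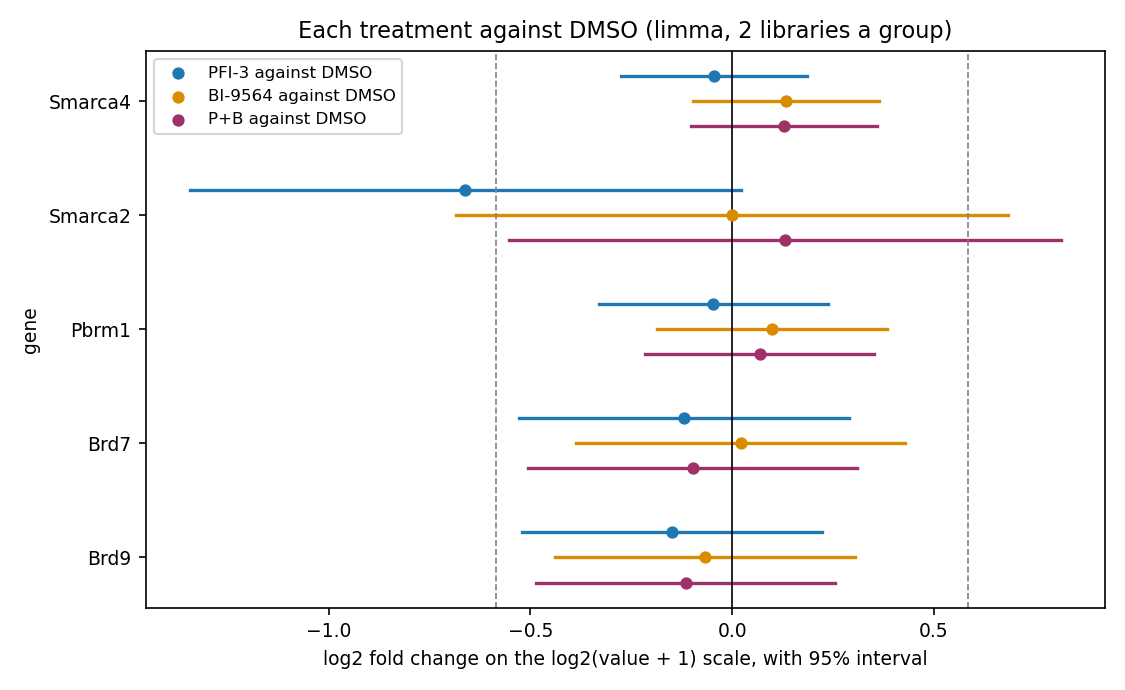
Log2 fold change against DMSO (horizontal axis, log2(value + 1) scale) of the 5 genes for PFI-3, BI-9564 and P + B; points are limma estimates and bars their 95% intervals, dashed lines mark 1.5-fold. For Smarca4, Pbrm1, Brd7 and Brd9 all 12 intervals cross 0 and stay between the dashed lines, while those of Smarca2 cross them.

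Averaging over the design gave the tightest estimates. The 4 libraries with BI-9564 (alone or in P + B) differed from the 4 without by 0.15 in Smarca4 (SE 0.071, −0.01 to 0.32, limma unadjusted p = 0.0626, adjusted p = 0.229). With the replicate number as a block the interval was 0.04 to 0.26, the unadjusted p 0.0123 and the adjusted p 0.0677 (limma). In that comparison 24.7% of all genes had an unadjusted p below 0.05, and 31.9% with the block. Both thresholds were passed by 3.19% of genes, and by 4.95% with the block. Pbrm1 differed by 0.11, Brd7 by 0.02, Brd9 by −0.02 and Smarca2 by 0.40. The 4 libraries with PFI-3 differed from the rest by −0.03 in Smarca4, −0.04 in Pbrm1, −0.12 in Brd7, −0.10 in Brd9 and −0.26 in Smarca2, where 0.323% of genes passed. Among the genes whose mean reached 1, 0.114% passed in the PFI-3 average and 2.22% in the BI-9564 average. No member passed in either. The 4 tested members also did not pass between treated groups, where 1.31% of genes passed for P + B against PFI-3, 0.196% for P + B against BI-9564 and 0.108% for BI-9564 against PFI-3. In a test of any difference among the 4 treatments, 1.94% of genes passed, and the members had adjusted p of 0.554 (Smarca4), 0.828 (Pbrm1), 0.915 (Brd7) and 0.911 (Brd9) in limma. Smarca2 had 0.398 in the wider set, in which 0.87% passed that test and 0.0153% passed for P + B against BI-9564. Whether the compounds depart from additivity was tested by their interaction, in which every member had an adjusted p of 1 (limma) and 0% of genes passed. The estimates of the 4 tested members ran from 0.00037 to 0.10. Among the genes whose mean reached 1, their intervals were −0.28 to 0.36 (Smarca4), −0.38 to 0.41 (Pbrm1), −0.60 to 0.60 (Brd7) and −0.42 to 0.62 (Brd9). The estimate of Smarca2 was 0.79 (−0.17 to 1.76). Intervals this wide do not show additivity for any member.

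Treatments that did not overlap were also counted without a model, as this is common among all genes. PFI-3 and DMSO did not overlap in 2 of 5 members (Smarca2 and Brd9, both lower with PFI-3), where 29.3% of tested genes did not and 12.8% were lower. BI-9564 and DMSO did not overlap in 1 of 5 (Smarca4, higher), against 41.2%, with 22.9% higher, and P + B and DMSO in 1 of 5 (Brd9, lower), against 47.5%, with 18.9% lower. Against PFI-3, 3 of 5 members (Smarca2, Smarca4 and Pbrm1) were wholly higher with BI-9564, where 20.5% of tested genes were higher and 40.5% did not overlap in either direction. The same 3 were wholly higher with P + B, where 23.8% were higher and 42.7% did not overlap. Smarca2, under the abundance filter, is not among the 10222 genes behind these shares. BI-9564 and P + B overlapped in all 5, where 31.4% of genes did not. With 2 libraries in each of 2 groups, an exact permutation test cannot give a p below 0.333.

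The ratio of paralogs asks whether one ATPase or one BI-9564 target replaced the other at the mRNA level. Smarca2 made up 2.95% ± 0.707 (SD, n = 8) of the summed Smarca2 and Smarca4 TPM. The share was 3.15% and 3.55% in the DMSO libraries, 1.65% and 2.22% under PFI-3, 3.52% and 2.65% under BI-9564 and 3.55% and 3.29% under P + B. It was lowest in both PFI-3 libraries and did not rise above 3.55% in any library. Paralog ratios were tested as log2 values after 1 was added to each TPM, which matters most for Smarca2, at 2 to 5 TPM. On that scale the ratio of Smarca2 to Smarca4 differed by −0.24 between the 4 libraries with PFI-3 and the 4 without (two-sided exact permutation p = 0.343, adjusted p = 0.686). It differed by 0.24 between those with and without BI-9564 (exact permutation p = 0.286, adjusted p = 0.686). The libraries with PFI-3 pool PFI-3 alone, at a mean log2 ratio of −5.19, with P + B, at −4.57. The mean was −4.57 in DMSO and −4.71 under BI-9564. These tests therefore do not address PFI-3 alone, where 2 against 2 libraries cannot give an exact permutation p below 0.333.

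Brd9 made up 24.1% ± 3.00 (SD, n = 8) of the summed Brd7 and Brd9 TPM. The share was 21.7% and 27.5% in the DMSO libraries, 24.2% and 23.9% under PFI-3, 28.4% and 18.9% under BI-9564 and 23.7% and 24.7% under P + B. The widest gap was between the 2 BI-9564 libraries, and it enclosed every other library. The log2 ratio of Brd9 to Brd7 differed by 0.02 with PFI-3 (exact permutation p = 0.971) and by −0.04 with BI-9564 (exact permutation p = 0.914), and both adjusted p were 0.971. The 4 ratio tests were adjusted together, and 0.0286 was the smallest p that 4 against 4 libraries allow.

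**Figure D3:**
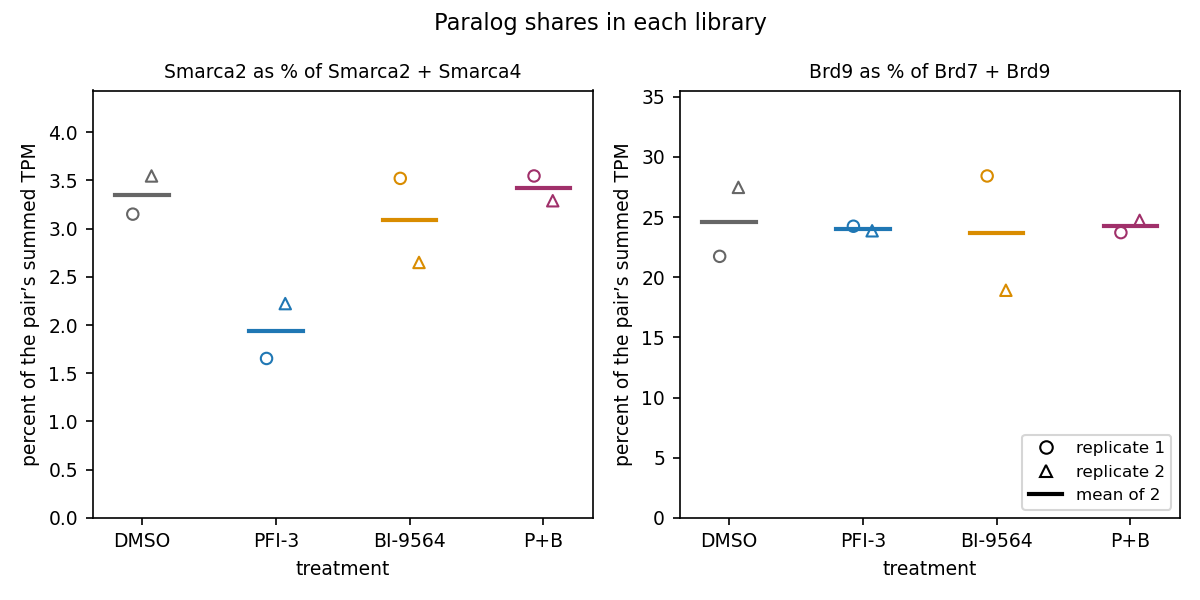
Share of Smarca2 in the ATPase pair (left) and of Brd9 in the Brd7 and Brd9 pair (right), as percent of summed TPM, in each library by treatment, with circles for replicate 1, triangles for replicate 2 and bars for the mean of 2. On the left the 2 PFI-3 libraries, at 1.65% and 2.22%, are the lowest, and on the right the 2 BI-9564 libraries, at 28.4% and 18.9%, enclose all others.

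The other subunits show which complexes the 5 genes were expressed alongside. All 24 further BAF subunit genes were found in the table, and 21 reached a mean of 5. Of the subunits that define PBAF, Phf10 averaged 54.8 and Arid2 30.9 TPM, on either side of Pbrm1 and below Brd7. The ncBAF scaffolds Bicra and Bicral, listed under their older names Gltscr1 and Gltscr1l, averaged 13.6 and 11.5 TPM, below Brd9. Of cBAF, Arid1a averaged 104.1 and Dpf2 95.1 TPM, and Ss18, which is in both cBAF and ncBAF, averaged 100.4. Some further subunits are named after their values were seen. Smarcb1 and Smarcc1 of the core averaged 139.6 and 126.4 TPM, beside 134.6 for Smarca4, and Actl6b, a subunit of the neuronal complex, was listed at 0 in every library.

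**Figure D4:**
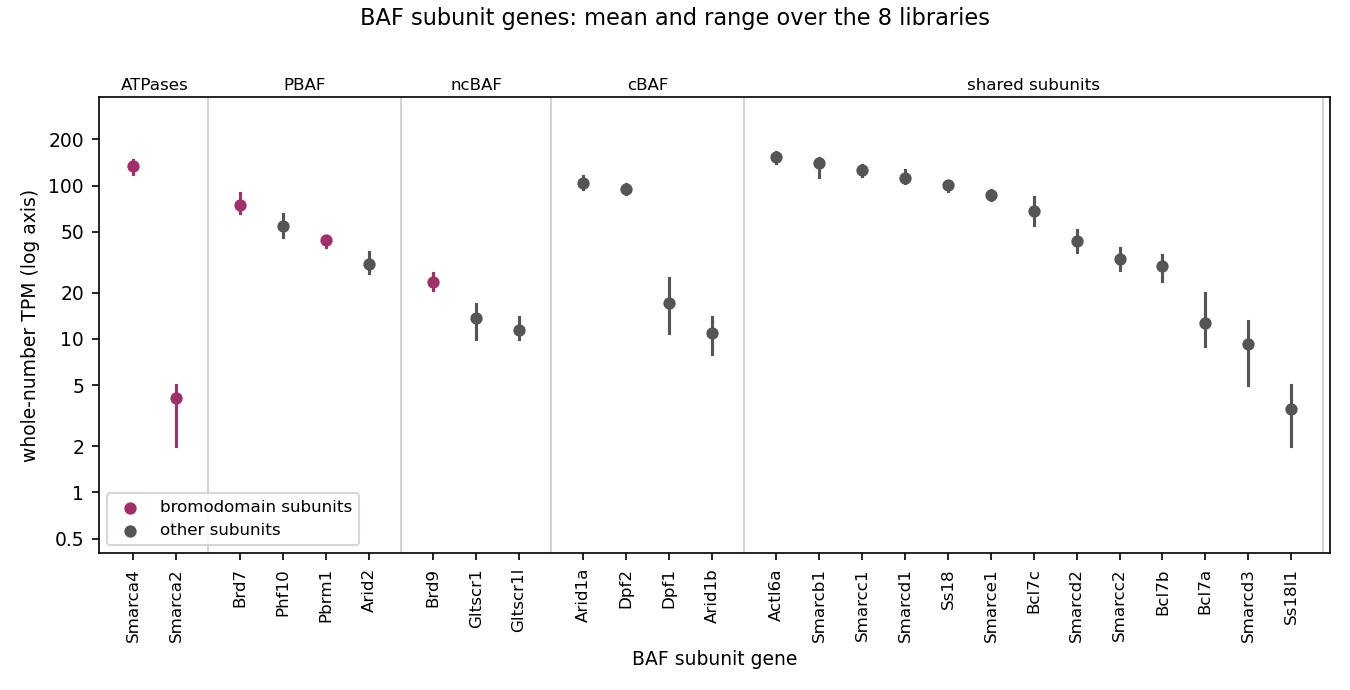
Mean (points) and range (bars) over the 8 libraries of whole-number TPM (log axis) for BAF subunit genes grouped by complex, with the bromodomain subunits in purple. Actb is left out as far above the axis, and Actl6b and Dpf3 because their means were below 1. Smarca4 is level with core subunits such as Smarcb1, and Smarca2 is the lowest of the bromodomain subunits.

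The other subunits were also examined for a change in mRNA, the only level measured. With P + B, 0 of 21 tested subunits passed the thresholds (limma, 4% of all genes), 8 of 21 had an unadjusted p below 0.05 (22.6% of all genes did), 14 were above 0 and 7 below, and their median log2 change was 0.07, beside 0.06 for all genes tested. With either compound alone the count was also 0 of 21 (0% of all genes with PFI-3 and 0.108% with BI-9564). At an unadjusted p below 0.05 there was 1 of 21 for PFI-3, beside 6.79% of all genes, and 0 of 21 for BI-9564, beside 14.9%. The highest estimate was that of Bcl7a, a small accessory subunit, which measured 9 and 10 TPM in the DMSO libraries, 10 and 10 under PFI-3, 13 and 14 under BI-9564 and 15 and 20 under P + B. Its log2 change with P + B was 0.81 (SE 0.204, limma adjusted p = 0.0627). Dpf1, a DPF subunit best known from neuronal BAF, measured 11 and 15 TPM under DMSO and 16 and 16 under PFI-3, then 18 and 15 under BI-9564 and 25 and 21 under P + B, a log2 change of 0.79 (SE 0.200, limma adjusted p = 0.0637). Smarcd3, a muscle-enriched variant of a core subunit, came next at 0.74 (SE 0.319, limma adjusted p = 0.215), from 5 and 9 TPM under DMSO to 11 and 13 under P + B. With the replicate block Bcl7a and Dpf1 passed, at adjusted p of 0.0335 and 0.0454 (limma), when 7.02% of all genes did. Averaged over the libraries with and without BI-9564, Bcl7a rose by 0.60 (SE 0.144, limma adjusted p = 0.0460) as the only 1 of 21, where 3.19% of all genes passed, and this call was lost without any 1 of the 8 libraries.

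Bromodomains also occur outside BAF. Of 34 further bromodomain genes, 30 were tested, of which 22 stood above 0 and 8 below with P + B. Their median log2 change was 0.07, beside 0.06 for all genes tested. With P + B 1 of the 30 passed (4% of all genes), and with either compound alone 0 of 30 (0% of all genes with PFI-3 and 0.108% with BI-9564). At an unadjusted p below 0.05 there were 4 of 30 for P + B, beside 22.6% of all genes (limma). There were 1 of 30 for PFI-3, beside 6.79%, and 4 of 30 for BI-9564, beside 14.9% (limma). The one that passed was Baz1a, a subunit of ISWI-type remodelers, and it was lower. It measured 46 and 42 TPM in the DMSO libraries, 23 and 22 under PFI-3, 30 and 29 under BI-9564 and 17 and 24 under P + B. All libraries with a compound were below both DMSO libraries. Its log2 change fell by 1.08 with P + B (SE 0.173, limma adjusted p = 0.0130), and the call was lost without DMSO replicate 1 (adjusted p = 0.0997), DMSO replicate 2 (adjusted p = 0.0781) or P + B replicate 1 (adjusted p = 0.0637). With PFI-3 alone the estimate was −0.94 (SE 0.173, limma adjusted p = 0.493). Brd2, a BET protein gene, measured 254 and 268 TPM under DMSO and 265 and 250 under PFI-3, then 363 and 358 under BI-9564 and 370 and 358 under P + B. The difference of 0.48 for P + B against DMSO (SE 0.073, limma adjusted p = 0.0106) was under the 1.5-fold threshold. Ash1l, a histone methyltransferase gene and the third by size of change, stood at 0.44 (SE 0.200, limma adjusted p = 0.237). Brd2 and Baz1a also passed the test of any difference among the 4 treatments, with adjusted p of 0.0143 and 0.0484 (limma).

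**Figure D5:**
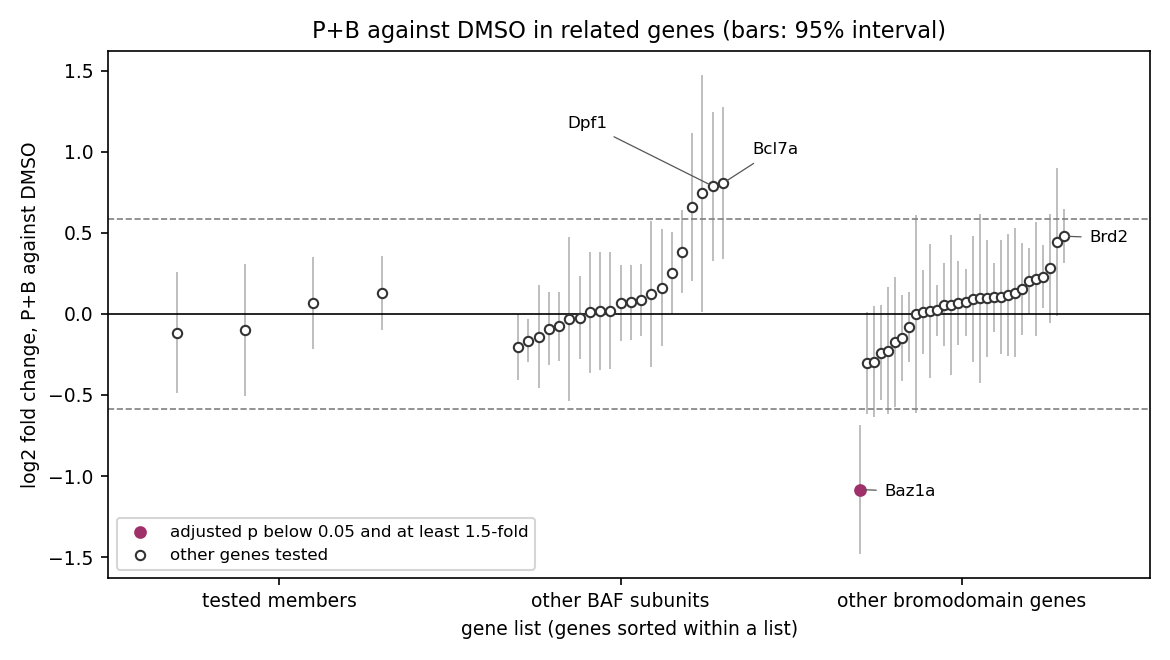
Log2 fold change of P + B against DMSO (vertical axis) for the 4 tested members, 21 other BAF subunits and 30 other bromodomain genes, sorted within each list; bars are 95% intervals from limma and dashed lines mark 1.5-fold. Only Baz1a, at −1.08, is filled as past both thresholds. The members lie between −0.12 and 0.13.

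The genes whose pattern over the 8 libraries was most like each member were sought among 6521 genes averaging 20 or more, by Pearson correlation of log2(value + 1). For Smarca4 they were Luzp1 (r = 0.976), Ptbp1 (0.975) and Ado (0.974), and for Brd9 they were Fubp3 (0.968), Hspbp1 (0.893) and Gdi2 (0.883). Brd7 was most like Smap1 (0.906), Fam98b (0.876) and Rsf1 (0.876). Pbrm1 was most like Rps27rt (0.961), which is listed at 0 in 2 libraries, Eef1d (0.947) and Atp5f1 (0.947), and Smarca2, with only 4 distinct values, was most like 8030462N17Rik (0.947), Rnpc3 (0.925) and Ppa2 (0.911). These are the highest of all those correlations over n = 8 libraries that share treatments and replicate numbers, and are given as a description. No member was among the 3 most like another, but Smarca2 averages less than 20 and could not be found by this search. Between members, r was 0.909 for Smarca4 and Pbrm1, 0.691 for Smarca2 and Pbrm1 and 0.681 for Smarca2 and Smarca4. The remaining pairs ran from −0.362 to 0.280.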

How the data were processed

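The deposited table gave 1 value per gene and library. Per the labels, the submitters' processing notes name bcl2fastq, Bowtie2 2.2.5 and RSEM 1.3.0 with build mm10, and the authors deposited TPM. Library sums fall 8103 to 8426 short of the total that TPM has by definition, or 0.579 to 0.612 for each gene above 0. As they are whole numbers, the deposited values were handled as a score, TPM made whole, and not as counts. Which way they were made whole is not given in the sources used here. If fractions were dropped, each value reads low by less than 1 unit. This would weigh most on Smarca2 and overstate the excess of Smarca4 over it, which was not tested.

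Tests used limma 3.58.1 (R 4.3.3) on log2(value + 1) (trended variance, all 4 treatments fitted together) for genes with a mean of 5 or more, or of 1 or more for Smarca2. The code was tested on simulated data. Calls needed an adjusted p below 0.05 and 1.5-fold. Ratios were taken as log2 values after adding 1 to each gene and tested by exact permutation over 70 splits. Replicate differences of the 6 pairs of treatments correlated at 0.143 to 0.236 over 10222 genes, so replicate numbers share part of their variation. The results given are from the fit without a replicate block unless the block is named. Named genes are the members, Jun, Pou5f1, Sox2, Nanog, subunits that define a complex, genes of both lists called in any comparison or among the 3 largest changes with P + B, and the 3 genes most like each member. The members and lists were chosen with earlier results of these data known. Other pseudocounts, filters, scalings, fits and left-out libraries were tried.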

Additional observations from a re-analysis of the deposited data

How the results depend on the processing

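No member was called under any of the alternatives tried. In 430 refits of the 25 member estimates the lowest limma adjusted p was 0.0677. It was reached by Smarca4 in the libraries with BI-9564 under the replicate block. Direction was not reversed in 406 refits. These include 16 of Smarca2 with BI-9564 against DMSO, whose main estimate was 0 and had no direction to keep. The 24 refits that reversed were small values of 12 estimates, most on leaving out 1 library, and the cause was not tested. Their ranges without 1 library were, on the log2 scale, −0.12 to 0.0292 for Smarca4 with PFI-3 and −0.0622 to 0.0120 in its PFI-3 average. For Pbrm1 they were −0.0459 to 0.18 with P + B, −0.16 to 0.0672 with PFI-3, −0.0152 to 0.21 with BI-9564 and −0.10 to 0.0182 in the PFI-3 average. For Brd7 they were −0.32 to 0.12 with P + B, −0.34 to 0.10 with PFI-3, −0.20 to 0.24 with BI-9564 and −0.0890 to 0.13 in the BI-9564 average. For Brd9 they were −0.24 to 0.11 with BI-9564 and −0.10 to 0.0701 in the BI-9564 average. The log2 ratio of Brd9 to Brd7 ranged from −0.12 to 0.13 for PFI-3 and from −0.15 to 0.10 for BI-9564. Median centring, which lowers the median of all genes with P + B by 0.09, put Pbrm1 at −0.0253 with P + B and Brd7 at −0.0261 with BI-9564 and −0.0252 in the BI-9564 average.

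With the replicate number as a block, 2 of the 21 other BAF subunits (Bcl7a and Dpf1) passed with P + B, against 0 without it. Of all genes 7.02% passed with the block, against 4%. Limma without a trend also called 2, Bcl7a (adjusted p = 0.0441) and Arid1b (adjusted p = 0.0421), the latter named after its value was seen, while Dpf1 did not pass (adjusted p = 0.0692). How many of all genes passed without a trend is not given here. The block changed no call of a member. Without it 0 of 36 values of the 4 tested members had an unadjusted p below 0.05 (limma), and with it 3 did, all of Smarca4. These were 0.0324 for P + B against PFI-3, 0.0288 for BI-9564 against PFI-3 and 0.0123 in the BI-9564 average (limma with the block). Of all genes, 23.1%, 20.1% and 31.9% were below 0.05 there. The ratios' exact permutation p within replicate numbers were 0.389, 0.333, 0.944 and 0.889. The count of 1 other bromodomain gene with P + B became 0 with only the libraries compared or an adjusted p below 0.01, 2 with no fold threshold, and 0 to 1 without 1 library. Counts in the averages were taken up after seeing the data. With PFI-3, other bromodomain genes went from 0 to 1 under quantile normalization, median centring or the replicate block. With the block 1.05% of all genes passed in that average, and the shares under the other settings are not given here. With BI-9564, other bromodomain genes went from 0 to 2 with no fold threshold. In the BI-9564 average, other BAF subunits went from 1 to 0 with a pseudocount of 5, a mean of at least 1 or 20, or no filter. They also went to 0 with quantile normalization, median centring or an adjusted p below 0.01, and were 0 without any 1 library. For Smarca2, a pseudocount of 5 moved the PFI-3 difference from −0.66 to −0.34. The whole-number values and 2 libraries a treatment set these limits: changes under 1 TPM cannot be seen, and smaller changes of the other members than their intervals allow were not detectable.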

Other observations

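Several of these genes differed between replicate numbers. Replicate differences of the treatments correlated at 0.143 to 0.236 over 10222 genes, so shared variation is not limited to those named here. The share of all genes that ran 1 way in 4 of 4 treatments is not given here. Averaged over the 4 treatments, replicate 2 stood above replicate 1 by 0.13 on the log2(value + 1) scale in Smarca4 (4 of 4 treatments), by 0.11 in Pbrm1 (4 of 4) and by 0.51 in Jun (4 of 4), and below it by 0.13 in Brd9 (2 of 4 treatments lower and 2 equal) and by 0.07 in Brd7 (3 of 4 treatments lower). In Smarca2 it stood above by 0.10 (2 of 4 treatments higher and 1 lower). The Smarca4 difference between replicate numbers was as large as its difference of 0.13 between P + B and DMSO. Zfp42, a naive pluripotency marker named after its values were seen, ran the other way: 227 and 132 in the DMSO libraries, 257 and 189 under PFI-3, 189 and 100 under BI-9564 and 186 and 120 under P + B, higher in replicate 1 in 4 of 4 treatments. The labels do not say what a replicate number stands for, and its part in the members' values was not tested beyond the block.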
